A study of Mus musculus with 3 samples.

Results

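The genes described here are the surface Toll-like receptor genes Tlr1, Tlr2, Tlr4, Tlr5 and Tlr6 and the coreceptor genes Cd14 and Ly96, 7 of the 55487 genes in RNA sequencing of mouse BMDCs, dendritic cells cultured from bone marrow, which take up microbes and present their antigens. They were taken by gene name, and each name matched 1 row. The cells were wild type, and the groups were untreated cells, cells treated with P. vulgatus (a common gut bacterium) and cells given YB328, another gut bacterium. Each group was 1 library, so no value below has a replicate check, no p-value is given, and every difference is one between single libraries. The labels used here do not say how the marrow was cultured, the mouse strain or age, the dose, the exposure time, or whether the bacteria were alive.

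Toll-like receptors are membrane proteins that recognise microbial molecules. At the cell surface TLR2 pairs with TLR1 or TLR6 to bind bacterial lipoproteins, TLR4 binds lipopolysaccharide together with MD-2 (encoded by Ly96), and TLR5 binds flagellin. CD14, a protein anchored to the outer membrane face, hands lipopolysaccharide and lipopeptides to these receptors. Dendritic cells that sense bacteria through them signal by the adaptors MyD88 and TRIF to NF-kB and to interferon genes.

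Tlr1 and Tlr6 lie next to each other on the minus strand of chromosome 5 of the build GRCm38, Tlr1 at 64924679 to 64933563 and Tlr6 at 64952031 to 64960097, with 18467 bases between them. Each has its whole coding sequence in 1 exon. The coding sequences are 76.4% identical over 2356 aligned bases, against 58.1% for Tlr1 and Tlr2. The sequence below is shown because a read that lies wholly within it matches both genes alike. It is the longest stretch that both coding sequences share without a difference, 229 bases, read on the coding strand from GENCODE M21 transcripts, at chr5:64925537-64925765 in Tlr1 and chr5:64953828-64954056 in Tlr6, coding bases 1468 to 1696 and 1507 to 1735.
Tlr1 and Tlr6 shared stretch: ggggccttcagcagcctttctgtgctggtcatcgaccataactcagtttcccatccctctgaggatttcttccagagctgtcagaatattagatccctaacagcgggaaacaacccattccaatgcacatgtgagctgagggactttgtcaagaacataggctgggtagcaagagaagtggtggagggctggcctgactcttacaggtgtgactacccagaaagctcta
Of all windows of 50 bases in the Tlr1 coding sequence, 19.4% occurred letter for letter in Tlr6, all between coding bases 1294 and 2085 of 2385. No such window was shared between Tlr2, Tlr4 and Tlr5, or between these and Tlr1 or Tlr6. The deposited estimated counts were not whole for the single genes in the bacterial libraries, but were whole in sum: Tlr1 and Tlr6 had 436.31 and 337.69 counts with P. vulgatus, which sum to 774, and 695.99 and 431.01 with YB328, which sum to 1127. In the untreated library the counts were 5 and 46. The split between Tlr1 and Tlr6 is therefore an estimate, and the sum of both is given beside the single values.

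RefSeq promoter windows of GRCm38.p6 (250 bases before to 50 after a RefSeq start) were taken for 4 of the 7 genes. Tlr4 and Ly96 had no entry, and Cd14 was left out of the search. The windows of Tlr2 and its partner receptors are shown. These 3 genes had their lowest level in the untreated library, as had every gene of the set but Tlr5. Tlr1 and Tlr6 had 2 windows each, and the one further upstream is printed. Capitals mark matches to the PU.1 motif AGGAAGT or to the NF-kB motif. The Tlr2 window is chr3:83841559-83841858, the printed Tlr1 window is chr5:64933509-64933808 and the printed Tlr6 window is chr5:64959999-64960298. All are on the minus strand and written 5′ to 3′.
Tlr2 promoter: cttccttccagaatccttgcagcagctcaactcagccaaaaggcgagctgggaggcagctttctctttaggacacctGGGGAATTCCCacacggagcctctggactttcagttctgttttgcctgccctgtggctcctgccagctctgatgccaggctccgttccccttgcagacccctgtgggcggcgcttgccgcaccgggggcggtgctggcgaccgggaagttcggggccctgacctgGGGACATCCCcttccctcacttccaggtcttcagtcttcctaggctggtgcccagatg
Tlr1 promoter: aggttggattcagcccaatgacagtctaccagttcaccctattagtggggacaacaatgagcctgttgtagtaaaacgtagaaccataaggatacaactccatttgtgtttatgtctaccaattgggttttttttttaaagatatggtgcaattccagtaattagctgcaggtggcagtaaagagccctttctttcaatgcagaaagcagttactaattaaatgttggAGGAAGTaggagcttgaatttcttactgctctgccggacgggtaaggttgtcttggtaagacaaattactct
Tlr6 promoter: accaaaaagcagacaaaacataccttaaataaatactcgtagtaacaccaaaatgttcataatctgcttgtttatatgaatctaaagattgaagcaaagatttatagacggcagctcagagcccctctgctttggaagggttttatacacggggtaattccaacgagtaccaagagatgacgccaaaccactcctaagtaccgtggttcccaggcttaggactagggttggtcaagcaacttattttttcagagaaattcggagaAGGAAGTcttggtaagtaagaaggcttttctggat
The 2 marked NF-kB stretches of Tlr2 cover bases 78 to 88, which hold overlapping matches on both strands, and bases 243 to 252. The second spans the RefSeq start, which lies inside the gene of the expression table, whose minus strand start is 83841767. PU.1 is a transcription factor of myeloid cells, and its motif stood at bases 229 to 235 of the Tlr1 window and 266 to 272 of the Tlr6 window. Of 32817 promoter windows of the same length, 8.46% held the NF-kB motif and 9.35% the PU.1 motif on either strand. The AP-1 motif TGANTCA, held by 7.81% of windows, was in none of the 6 windows of these genes. The interferon-stimulated response element, held by 3.43%, had 2 overlapping matches on the opposite strand of a second Tlr6 window, which also held the PU.1 motif. A second Tlr1 window and the Tlr5 window held none of the 4 motifs. A match describes the letters and was not tested as a binding site.

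Levels are given in CPM, counts relative to library size scaled by trimmed mean of M values, or in the deposited TPM, which corrects for gene length, where genes are compared with each other. A gene was called higher or lower when it had at least 5 CPM in 1 of the libraries compared, a fold of 2 or more either way with 0.5 CPM added to both, and a 95% interval of its count ratio on 1 side of 1. Folds are CPM ratios without the added 0.5, and intervals and floors reflect counting error alone and may be too narrow, because reads were amplified and not tagged by molecule. Gene counts summed to 15538133 untreated, 26660870 with P. vulgatus and 26924006 with YB328. The share of counts in nuclear protein-coding genes, Lars2 left out, was 57.9% without bacteria, 95.3% after P. vulgatus and 96.6% after YB328. The untreated library thus differed in RNA makeup in every comparison that uses it. Its part in the results was not tested beyond the alternative that scales these genes alone.

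All 6 genes that reached 5 CPM in a library were higher with YB328 than untreated, and 5 of the 6 were higher with P. vulgatus. The gene that did not reach it was Tlr5, which a filter on level therefore removes from every count. Tlr1 and Tlr6 were under 5 CPM untreated and passed the filter only through the bacterial libraries, so the filter favoured their call as higher, and the counts and medians over the 6 genes are a description. The other 4, Tlr2, Tlr4, Cd14 and Ly96, were above 5 CPM in every library. In a bulk library, fewer cells of a type and less RNA per cell cannot be told apart. Over all genes tested, 24.2% were higher and 18.7% lower with YB328 (42.9% either way), and 24.7% were higher and 19.2% lower with P. vulgatus (43.9% either way). The calls split into 56.3% and 56.2% higher. That split turned to 74.3% and 69.5% with the deposited TPM. The median log2 ratio of the 6 genes was 2.16 with YB328 and 1.84 with P. vulgatus, beside 0.15 and 0.13 over all genes tested. Both comparisons share the untreated library.

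**Figure D1:**
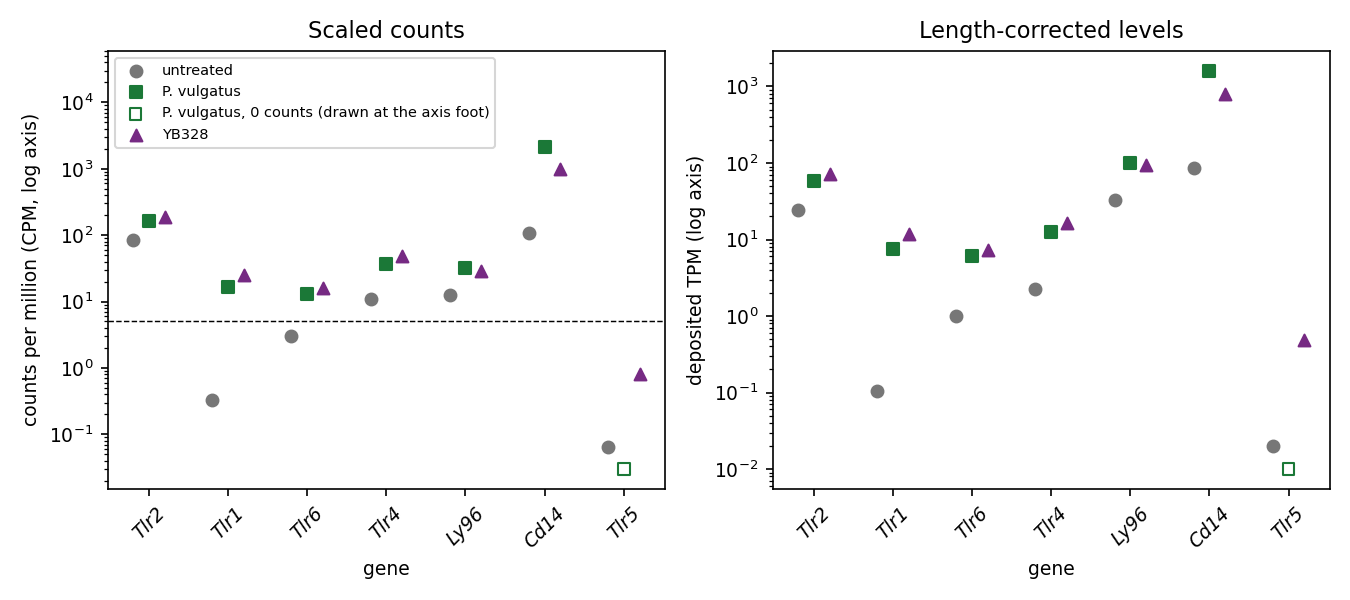
Levels of the 7 genes in the 3 libraries, as scaled CPM (left, dashed line at the minimum of 5 CPM) and as deposited TPM (right), both on log axes, 1 point per library, with an open square at the axis foot for the 0 counts of Tlr5 with P. vulgatus. Cd14 is the highest gene in each library and Tlr5 the lowest, and every gene but Tlr5 has its lowest point in the untreated library.

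Tlr2 (ENSMUSG00000027995.10, chromosome 3, 83836272 to 83841767, minus strand), the shared subunit of the lipoprotein receptors, stood at 83.9 CPM untreated, 163.9 CPM after P. vulgatus and 188 CPM after YB328. It was the most abundant of the 5 receptor genes in every library, at 24.3, 58.6 and 71.8 TPM. The untreated library was the lowest and the bacterial libraries lay close together. Tlr2 rose 2.25-fold with YB328 (95% interval 2.11 to 2.39). With P. vulgatus the ratio was 1.95 (95% interval 1.84 to 2.08), just short of the rule with a log2 ratio of 0.96. It passed with the deposited TPM, at 1.26, a setting that moves the median of all genes by 0.29.

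Tlr1 (ENSMUSG00000044827.10), the partner for triacylated lipopeptides, was close to absent without bacteria, at 0.324 CPM, and reached 16.5 CPM after P. vulgatus and 25.5 CPM after YB328. The untreated value rests on 5 counts, and the bacterial libraries stand far above it. The ratio was 78.7 with YB328 (95% interval 33.5 to 243) and 50.8 with P. vulgatus (95% interval 21.6 to 157). Of all genes tested, 0.732% had a higher log2 ratio than Tlr1 with YB328 and 1.28% with P. vulgatus.

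Tlr6 (ENSMUSG00000051498.7), the partner for diacylated lipopeptides, rose from 2.98 CPM to 12.8 CPM after P. vulgatus and 15.8 CPM after YB328. These are folds of 4.28 (95% interval 3.14 to 5.96) and 5.29 (95% interval 3.90 to 7.34). With a minimum of 20 CPM, Tlr6 was not tested in either comparison and Tlr1 was not tested with P. vulgatus. The summed counts of Tlr1 and Tlr6, which do not depend on how shared reads are split, were 3.31 CPM untreated, 29.2 CPM after P. vulgatus and 41.3 CPM after YB328. The sum was 8.85-fold higher with P. vulgatus (95% interval 6.66 to 12.0) and 12.5-fold higher with YB328 (95% interval 9.43 to 16.9).

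Tlr4 (ENSMUSG00000039005.13, chromosome 4, 66827584 to 66930284, plus strand), the receptor for lipopolysaccharide, stood at 10.8 CPM untreated, 37.1 CPM after P. vulgatus and 47.9 CPM after YB328. Tlr4 was low untreated and several times higher in both bacterial libraries. It rose 4.45-fold with YB328 (95% interval 3.78 to 5.26) and 3.45-fold with P. vulgatus (95% interval 2.93 to 4.09). The ratios of deposited TPM were larger, 7.34 and 5.60, more than 1.5 times the CPM ratios.

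Ly96 (ENSMUSG00000025779.10, chromosome 1, 16688051 to 16709611, plus strand), whose product MD-2 forms the lipid-binding pocket of the TLR4 complex, rose less than Tlr4. It stood at 12.6 CPM untreated, 31.6 CPM after P. vulgatus and 28.4 CPM after YB328. The folds were 2.51 with P. vulgatus (95% interval 2.15 to 2.95) and 2.26 with YB328 (95% interval 1.93 to 2.66).

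Cd14 (ENSMUSG00000051439.7, chromosome 18, 36725067 to 36726798, minus strand) was the most abundant of the 7 genes per length, at 85.6 TPM untreated, 1610.2 TPM with P. vulgatus and 793 TPM with YB328. It stood at 108.9 CPM untreated, 2163 CPM after P. vulgatus and 999.7 CPM after YB328. By TPM it ranked 890 untreated, 87 with P. vulgatus and 173 with YB328 among the 10701 genes that reached 5 CPM in a library. It rose 19.9-fold with P. vulgatus (95% interval 18.9 to 20.9) and 9.18-fold with YB328 (95% interval 8.74 to 9.65). It is the gene of the set in which the P. vulgatus library stood clearly above the YB328 library.

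Tlr5 (ENSMUSG00000079164.8, chromosome 1, 182954788 to 182976044, plus strand), the flagellin receptor, had 1 count untreated, 0 with P. vulgatus and 22 with YB328. The YB328 level was 0.806 CPM, and the floor of 3 counts was 0.194 CPM in the untreated library and 0.113 CPM with P. vulgatus. The YB328 level was 7.11 times that floor with P. vulgatus, and the 95% interval of their count ratio began lower, at 5.31. Against the untreated library the ratio was 12.4 (95% interval 2.01 to 513). Both statements concern a gene far below the 5 CPM minimum, and it was called only where no minimum was set.

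**Figure D2:**
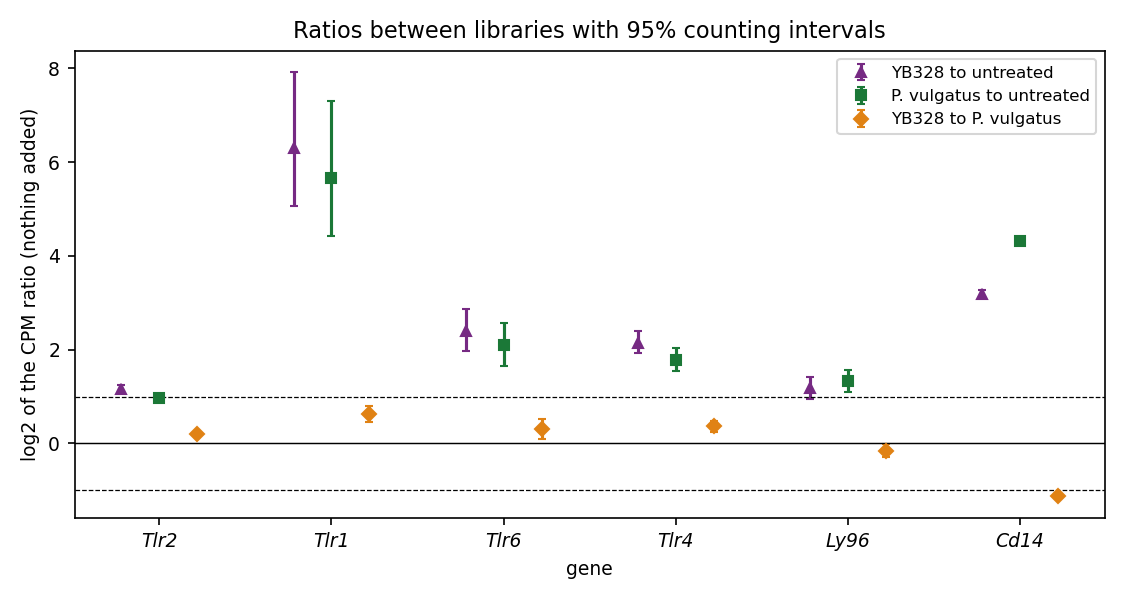
CPM ratios between libraries on a log2 axis for the 6 genes that reached 5 CPM, with exact 95% intervals that cover counting error only, and dashed lines at a fold of 2 in either direction. Tlr1 and Cd14 have the highest ratios to untreated, 78.7 and 9.18 with YB328 and 50.8 and 19.9 with P. vulgatus, and between the bacterial libraries Cd14 alone lies beyond the dashed line.

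Of the 6 genes tested between the bacterial libraries, Cd14 was the 1 that passed the rule, and Tlr5, with 22 counts against 0, was too low to be tested. Cd14 was 2.16-fold lower with YB328 than with P. vulgatus (95% interval 2.13 to 2.19), and 1 of the 6 genes was called lower and 0 higher, where 2.69% and 2.89% of all genes tested were lower and higher (5.58% either way). The log2 ratio of Cd14 lay between -1.13 and -1.02 over the 10 alternatives, close to the limit of the rule. Tlr1 was at 1.55 times its P. vulgatus level (95% interval 1.37 to 1.75), Tlr4 at 1.29 (95% interval 1.19 to 1.40), Tlr6 at 1.24 (95% interval 1.07 to 1.43) and Tlr2 at 1.15 (95% interval 1.10 to 1.20). The ratio for Ly96 was 0.900 (95% interval 0.815 to 0.993). These 5 genes did not pass the rule of size, although each interval excludes 1 for counting error.

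The mix of receptor transcripts changed. The 5 receptor genes summed to 27.6 TPM untreated, 84.8 TPM with P. vulgatus and 107.7 TPM with YB328. Tlr2 made up 87.9% of that sum untreated, 69.2% with P. vulgatus and 66.7% with YB328. The share of Tlr1 was 0.384%, 8.96% and 10.8% in the same order, that of Tlr6 was 3.58%, 7.08% and 6.77%, and that of Tlr4 was 8.11%, 14.8% and 15.3%. Among all 12 Toll-like receptor genes of the table, these 5 held 84.4% of TPM untreated, 83.4% with P. vulgatus and 72.8% with YB328.

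Ratios of receptor partners within a library do not depend on the scaling between libraries. In counts per kilobase, Tlr1 stood at 0.00385 of Tlr2 untreated (95% interval 0.00125 to 0.00900), 0.1001 with P. vulgatus (95% interval 0.0905 to 0.111) and 0.135 with YB328 (95% interval 0.124 to 0.146). The ratio was thus 35.0 times higher with YB328 than untreated (95% interval 14.9 to 108) and 26.0 times higher with P. vulgatus (95% interval 11.03 to 80.7). Tlr2 remained the more abundant partner in all libraries.

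Tlr6 to Tlr2 changed less, from 0.0291 untreated to 0.0639 with P. vulgatus and 0.0687 with YB328. The order of the partners turned: Tlr1 stood at 0.132 of Tlr6 untreated (95% interval 0.0410 to 0.331), but at 1.57 with P. vulgatus (95% interval 1.36 to 1.81) and 1.96 with YB328 (95% interval 1.74 to 2.22). By deposited TPM the Tlr1 to Tlr6 ratios were 0.107, 1.27 and 1.60, so the order turned there too. These ratios carry the uncertainty of the shared reads.

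Within the lipopolysaccharide complex, Ly96 exceeded Tlr4 7.15-fold untreated (95% interval 5.79 to 8.86), 5.21-fold with P. vulgatus (95% interval 4.74 to 5.71) and 3.63-fold with YB328 (95% interval 3.32 to 3.98) in counts per kilobase. The excess was smaller in both bacterial libraries. By deposited TPM it was larger in each library, at 14.8, 7.93 and 5.80. Cd14 exceeded Tlr4 25.1-fold untreated, 144.7-fold with P. vulgatus and 51.9-fold with YB328. The Cd14 to Tlr4 ratio was therefore 5.75 times higher with P. vulgatus than untreated (95% interval 4.82 to 6.84) and 2.06 times higher with YB328 (95% interval 1.73 to 2.45). By deposited TPM these changes were 3.36 and 1.26. Between the bacterial libraries the ratio was 2.79-fold lower with YB328 (95% interval 2.56 to 3.04).

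Tlr2 exceeded Tlr4 10.6-fold untreated, 5.97-fold with P. vulgatus and 5.33-fold with YB328. The balance between them moved towards Tlr4 in both bacterial libraries, by 1.77-fold with P. vulgatus (95% interval 1.48 to 2.12) and 1.98-fold with YB328 (95% interval 1.66 to 2.37).

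**Figure D3:**
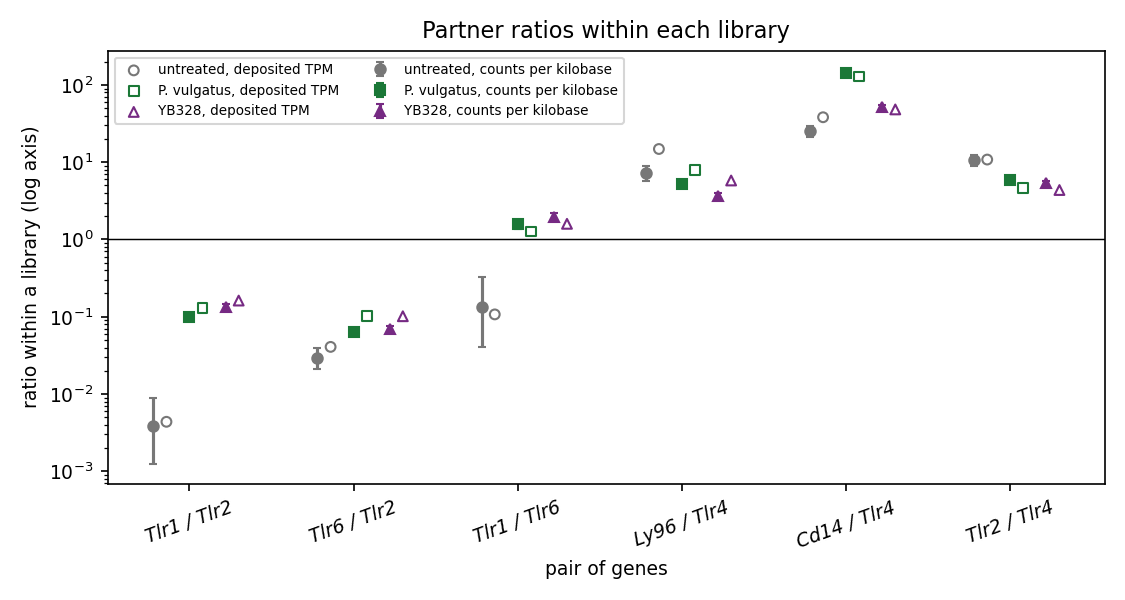
Ratio of the first to the second gene of 6 pairs within each library on a log axis, as counts per kilobase of gene length with 95% counting intervals (filled) and as deposited TPM (open). The Tlr1 to Tlr6 ratio lies below 1 untreated, at 0.132, and above 1 in both bacterial libraries, at 1.57 and 1.96.

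The genes with the most similar pattern over the 3 libraries were found by the distance between pairs of log2 ratios to untreated, among genes with a mean of at least 20 CPM. Among the nearest to Tlr1 were Clec4e (the lectin receptor Mincle) and Emp1, at distances of 0.02 and 0.10. Within 0.5 of Tlr1 lay 11 of 5909 genes. The 0.5 CPM added to these ratios exceeds the 0.324 CPM of Tlr1 untreated, so its distances depend on that added value. With 0.1 or 2 CPM added, the log2 ratio of Tlr1 with YB328 was 5.92 or 3.56 instead of 4.98. Nearest to Cd14 were Slc16a3 (a lactate transporter), Cxcl2 (a neutrophil chemokine) and Jdp2 (a transcription factor), at 0.13, 0.22 and 0.26, and 9 of 5908 genes lay within 0.5. Cxcl2 stood at 81.8 CPM untreated, 1847 CPM after P. vulgatus and 688 CPM after YB328, in the same order as Cd14.

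The patterns of Tlr2 and Ly96 were common, shared within 0.5 by 15.6% and 13.7% of the genes compared. Among the nearest to Tlr2 were Psma5 (a proteasome subunit) and Snw1, and nearest to Ly96 were Dnajb1 (a cochaperone), Csnk1d (a kinase) and Mcl1 (a survival factor). Tlr4 and Tlr6 lay between, with 4.93% and 4.13% of genes within 0.5. Their nearest genes were Slfn10-ps, Cpt1a (fatty acid import into mitochondria) and Nt5c3 for Tlr4, and Pcyt1a (phosphatidylcholine synthesis), Rnf31 (a linear ubiquitin ligase subunit) and Abcc5 for Tlr6.

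Other genes of the pathway were read from 8 lists by the same rule. The median log2 ratio of each list stands beside the median over all genes tested. That was 0.15 (YB328 to untreated), 0.13 (P. vulgatus to untreated) and 0.00 (YB328 to P. vulgatus). The list counts stand beside 24.2% higher and 18.7% lower over all genes tested with YB328 to untreated. Those shares were 24.7% and 19.2% for P. vulgatus to untreated and 2.89% and 2.69% for YB328 to P. vulgatus. By deposited TPM, which differs from CPM in length correction and in the genes that reach the minimum as well as in scaling, 0 list genes were lower with YB328 and 1 with P. vulgatus than untreated, against 6 and 4 by CPM. The other scalings of the counts gave 5 or 6 with YB328 and 4 or 6 with P. vulgatus. Of the 7 other Toll-like receptor genes, 5 were tested with YB328, with a median of 1.93. Of these, 4 rose (Tlr3, Tlr7, Tlr12 and Tlr13) and Tlr11 fell. With P. vulgatus 4 were tested, where Tlr3 and Tlr13 rose and Tlr11 fell, with a median of 1.45. Tlr12 was not tested there, so the medians cover different genes. Tlr3 and Tlr12, at 0.972 and 0.518 CPM untreated, reached 5 CPM only with bacteria, so the filter favoured their call as higher. Tlr11 reached it only untreated, which favoured its call as lower. The limit of Tlr3 also holds for other list genes under 5 CPM untreated, among them Marco, Ticam1, Cxcl1 and Ptgs2. Tlr13, a receptor for bacterial ribosomal RNA in mice, was measured at 7.06 CPM untreated, 31.6 CPM after P. vulgatus and 71.7 CPM after YB328. Tlr11 was at 6.74, 0.0378 and 0.183 CPM in the same order, the last values resting on 1 and 5 counts. Between the bacterial libraries 3 of 4 were higher with YB328, namely Tlr12 (10.1-fold), Tlr13 (2.27-fold) and Tlr7 (2.23-fold). Tlr12, at 0.831 CPM with P. vulgatus, passed the filter there only through YB328, which favoured its call as higher.

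All 5 chaperone and trafficking genes were tested, with medians of 0.06 for YB328 and -0.03 for P. vulgatus. Hsp90b1, which encodes the chaperone gp96 needed for the folding of most Toll-like receptors, did not pass, at 590 CPM untreated, 418 CPM after P. vulgatus and 500.3 CPM after YB328. Cnpy3, which works with gp96, rose 2.48-fold with YB328, and Tmed7 rose 2.08-fold with P. vulgatus and 2.02-fold with YB328. Cnpy4 fell from 20.5 to 9.34 CPM with YB328.

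Of 13 ligand transfer and surface partner genes, 11 were tested with YB328, where 5 rose and 0 fell (median 0.96), and 10 with P. vulgatus, where 4 rose and 2 fell (median 0.77). Aoah, an enzyme that inactivates lipopolysaccharide by removing acyl chains, rose 15.2-fold with YB328 and 14.8-fold with P. vulgatus. The scavenger receptor gene Msr1 rose 4.92-fold and 4.16-fold in the same order. Marco, another scavenger receptor gene, rose from 2 counts to 211 with YB328, a ratio of 59.6 (95% interval 16.3 to 495), and to 287 after P. vulgatus, which gives 83.7 (95% interval 22.9 to 694). The other genes that rose were Itgb2 (2.24-fold) and Ly86 (2.06-fold) with YB328 and Scarb1 (2.24-fold) with P. vulgatus. Lbp stayed under 5 CPM, and Tril had 0 counts in every library.

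Clec7a, which encodes the beta-glucan receptor Dectin-1, was at 383 CPM untreated, 55.5 CPM after P. vulgatus and 341 CPM after YB328. The P. vulgatus library stood apart from the others, and Itgam followed the same order, at 211, 95.8 and 203 CPM. Between the bacterial libraries 4 of 11 genes were higher with YB328. They were Clec7a (6.14-fold, 95% interval 5.81 to 6.49), Cd180 (3.56-fold), Cd36 (2.25-fold) and Itgam (2.12-fold). Cd36 encodes a partner of TLR2 and TLR6. Cd180, at 7.80 CPM with YB328 and 2.19 CPM with P. vulgatus, passed the filter only through YB328, which favoured its call as higher.

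Of 18 adaptor and kinase genes, 3 rose and 3 fell with YB328 (median 0.50). With P. vulgatus 4 rose and 1 fell (median 0.56). The shares that rose, 16.7% and 22.2%, were below the 24.2% and 24.7% of all genes tested. Ticam1, which encodes TRIF, rose from 1.04 CPM to 29.6 CPM with YB328 and 29.0 CPM with P. vulgatus. Irak2 rose 2.73-fold and 2.40-fold, Ikbkg (the NEMO subunit of the IKK complex) rose 6.87-fold and 7.26-fold, and Traf3 rose 2.12-fold with P. vulgatus. Myd88 did not pass, at 106 CPM untreated, 171 CPM after YB328 and 179 CPM after P. vulgatus. Irak1 fell from 139.7 CPM to 68.8 CPM with YB328 and 59.6 CPM with P. vulgatus. Tab2 and Tab3 fell with YB328, to 31.8 and 3.66 CPM. In that comparison Tab3 passed the filter only through the untreated library, at 9.40 CPM, which favoured its call as lower. Ticam2 encodes the adaptor that bridges TLR4 to TRIF. It was the 1 gene of the list that passed the rule between the bacterial libraries. It stood at 8.98 CPM with YB328 against 20.1 CPM with P. vulgatus.

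Of 10 inhibitor genes tested, 5 rose and 1 fell with YB328 (median 1.15), and 6 rose and 0 fell with P. vulgatus (median 1.36). Irak3, a kinase-dead IRAK that restrains the receptors, rose 6.05-fold and 7.55-fold. The gene for the ubiquitin-editing enzyme A20, Tnfaip3, rose 5.10-fold and 8.46-fold, and that of its partner, Tnip1, rose 4.74-fold and 7.55-fold. Socs1 rose 3.37-fold and 3.33-fold, Tank rose 2.73-fold and 2.99-fold, and Tollip rose 2.24-fold with P. vulgatus. Il1rl1 (ST2) was at 2.82 CPM with YB328, lower than the 14.8 CPM untreated and the 7.74 CPM with P. vulgatus. Being under 5 CPM with YB328, it passed the filter only through the other libraries, which favoured its calls as lower.

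Of 11 transcription factor genes 5 rose and 0 fell in each comparison with untreated, with medians of 0.92 for YB328 and 0.68 for P. vulgatus. Irf7 rose 247-fold and 196-fold, Atf3 rose 9.84-fold and 8.88-fold, Nfkb2 rose 2.75-fold and 2.71-fold and Jun rose 2.73-fold and 2.83-fold. Relb rose 2.32-fold with YB328 and Rela rose 2.34-fold with P. vulgatus. None of the 11 passed between the bacterial libraries.

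Of 13 NF-kB targets 11 rose with YB328 and 12 with P. vulgatus, with median log2 ratios of 2.66 and 2.98. Il6 rose 56.0-fold and 123-fold, and Il1b rose 13.6-fold and 24.3-fold. Tnf did not pass in either comparison, and Ccl4 did not pass with YB328. Between the bacterial libraries 7 of the 13 were lower with YB328 (median -1.04), as Cd14 was. The lowest ratios were those of Cxcl1, at 223 against 717 CPM, Ptgs2, at 405 against 1152 CPM, and Nfkbiz, at 44.4 against 123 CPM.

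Of 9 genes of the interferon arm, 8 were tested and 7 rose in each comparison with untreated, with median log2 ratios of 6.91 for YB328 and 5.99 for P. vulgatus. Rsad2 rose 174-fold with YB328 and 200.2-fold with P. vulgatus, and Isg15 rose 168-fold and 170-fold. Mx1 did not pass, and Ifnb1 stayed under the minimum, at 0, 1.28 and 1.17 CPM untreated, with P. vulgatus and with YB328. Between the bacterial libraries Ifit2 was higher with YB328 (2.16-fold), and 0 genes were lower.

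**Figure D4:**
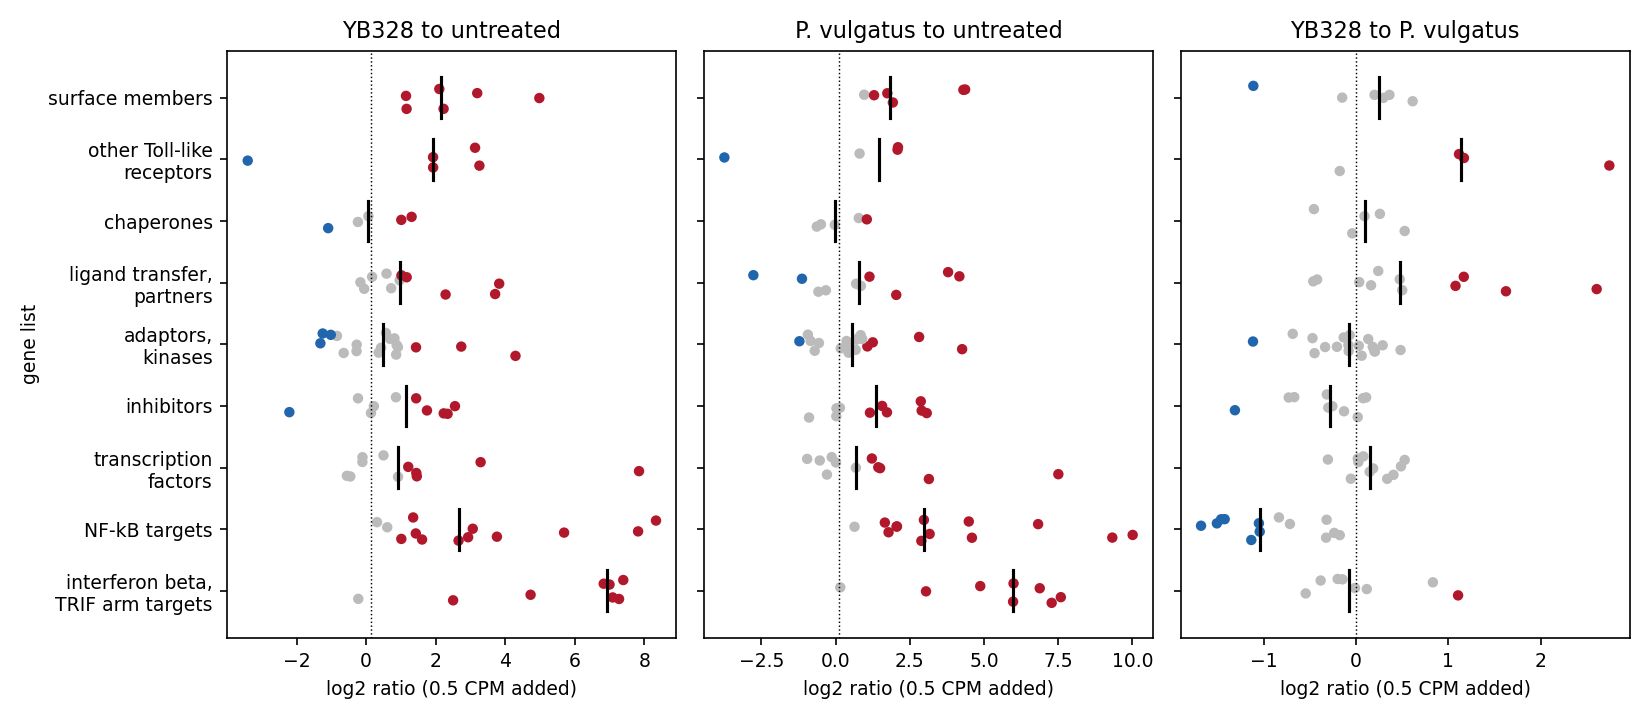
Log2 ratios with 0.5 CPM added for the genes of the surface set and of 8 pathway lists that were tested in each comparison, 1 point per gene (its height within a list carries no value), red for higher, blue for lower and grey for not passed, with black bars at list medians and a dotted line at the median of all genes tested. The surface genes lie to the right of 0 in both comparisons with untreated, and between the bacterial libraries 7 of 13 NF-kB targets and Cd14 lie at the lower side.

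Markers of cell types were read beside these values. Dendritic cell markers were present in all libraries, with 10 of 10 detected and summed levels of 9623, 16032 and 15473 CPM (untreated, P. vulgatus, YB328). Of these 10, 1 rose and 2 fell with either bacterium. Over all genes tested, 24.2% rose and 18.7% fell with YB328, and 24.7% rose and 19.2% fell with P. vulgatus. Ccr7, a chemokine receptor of migrating dendritic cells, was at 675, 5035 and 4670 CPM in the same order. Itgax (CD11c) fell from 273 CPM to 22.5 CPM after P. vulgatus and 75.4 CPM after YB328, and Dpp4 fell from 28.1 CPM to 12.9 and 10.1 CPM. Of 10 monocyte and macrophage markers, cells that also carry these receptors, 5 rose and 2 fell with either bacterium, and their sum was 693, 1148 and 1980 CPM. Neutrophil markers fell in 8 of 9 tested with YB328 and 9 of 9 with P. vulgatus, from a sum of 4597 CPM to 562 and 407 CPM, with none at 0. Of 6 stroma and endothelium markers tested, 4 fell in each comparison, and Kdr rose with both bacteria and Pecam1 with P. vulgatus. Markers under 5 CPM in 1 of the libraries compared passed the filter only through the other, which favoured their calls. Among them were Col1a1 and Col1a2, which reached 5 CPM only untreated, and Kdr, which reached it only with bacteria. Their sum was 551 CPM untreated, 93.7 CPM after P. vulgatus and 128 CPM after YB328, with Cdh5 at 0 untreated. Kdr alone held 0.194, 65.4 and 104 CPM of these sums, so most of both bacterial sums was Kdr. The 9 B, T and NK cell markers summed to 4.28 to 8.95 CPM, and Ncr1 and Klrb1c were at 0 untreated and with YB328. Mast cell and basophil markers summed to 59.0, 123 and 80.6 CPM, with Ms4a2 at 0 with P. vulgatus, and Prss34 rose with P. vulgatus. The part of these cells in the results for the surface receptors was not tested.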

How the data were processed

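RNA of 3 BMDC cultures was sequenced, 1 library each. Per the labels' protocols, libraries came from RNeasy Micro RNA by SMART-Seq v4 cDNA and Nextera XT, which does not mark strand. Per the submitters' processing notes, DRAGEN and GRCm38 were used. Its version, the annotation and the counting settings were not found in the labels. The authors deposited TPM, which is corrected for gene length, and estimated counts, which were not whole for 8.86% to 9.99% of the genes in the table. Counts were rounded here for intervals and scaling.

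TMM factors came from edgeR 4.0.16 (R 4.3.3), and other values from Python 3.11.15 (numpy 2.4.6, scipy 1.17.1, pandas 2.3.3, matplotlib 3.10.9). Ratio intervals are exact Clopper-Pearson bounds conditional on the summed counts, and changes of partner ratios have exact conditional odds ratio bounds. Genes named are all 7 members, up to 4 called genes per list and comparison with the largest ratios, genes needed to account for small counts, and 3 nearest genes per member with at least 5 CPM. Some of these nearest genes are not reported here. Hsp90b1, Myd88, Lbp, Tril and the marker genes were named besides, after their values were seen. The members and lists were chosen with earlier results of these data known. The scripts were tested on simulated data. Alternatives were total count, median-of-ratios and trimmed scalings, nuclear coding genes alone, TPM, other minima and added values, and thinning.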

Additional observations from a re-analysis of the deposited data

How the results depend on the processing

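Over 10 alternatives, each of the 6 tested genes kept its direction against the untreated library. The number of surface genes called higher with P. vulgatus was 3 instead of 5 with a minimum of 20 CPM, and with no minimum 1 (Tlr5) was higher with YB328 than with P. vulgatus, where the main count was 0. Counts of genes lower in the pathway lists were 6 (YB328 to untreated), 4 (P. vulgatus to untreated) and 9 (YB328 to P. vulgatus). With deposited TPM they were 0, 1 and 5, and with 20 CPM the first was 3. By deposited TPM, changes of partner ratios to untreated for YB328 and P. vulgatus were 0.391 and 0.535 for Ly96 to Tlr4 (0.508 and 0.728 by counts), 1.26 and 3.36 for Cd14 to Tlr4, and 0.403 and 0.432 for Tlr2 to Tlr4 (0.505 and 0.566 by counts). The cause was not tested. TPM moved the median log2 ratio of all genes by 0.38 and 0.29, and scaling nuclear protein-coding genes alone moved it by -0.14 and -0.13. Summing Tlr1 and Tlr6, chosen after seeing the data, left 5, 4 and 0 higher. No paired analysis was possible because each group is 1 library. Depth limits Tlr5 and the untreated level of Tlr1, at 1 and 5 counts.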

Other observations

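The deposited TPM did not follow count per kilobase equally for all genes. Relative to Tlr2 of the same library, the TPM per count per kilobase of Ly96 was 2.02 untreated, 1.94 with P. vulgatus and 1.95 with YB328. For Cd14 it was 1.48 untreated and 1.13 in both bacterial libraries, and for Tlr4 it was 0.975 untreated, 1.28 with P. vulgatus and 1.22 with YB328. Transcripts were not analysed here.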
